A study of Mus musculus with 4 samples.

Results

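Sprr1a, Sprr1b, Sprr3 and Sprr4 code for small proline-rich proteins that transglutaminases cross-link into the cornified envelope, the protein shell under the membrane of terminally differentiated keratinocytes. The 4 genes lie in the Epidermal Differentiation Complex of mouse chromosome 3, between the Sprr2 genes and Ivl, which codes for the envelope protein involucrin. The study placed a putative keratinocyte enhancer, E8, just upstream of Sprr1a. The Sprr genes are known as genes of stratified epithelia. The samples used here hold no expression values, so the labelled cell types could not be checked against marker genes. By microarray, the study found most genes of the central complex far more expressed in its plated keratinocytes than in its thymocytes. Those expression values were not used here.

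The chromatin contacts of this stretch were measured by 5C (chromosome conformation capture carbon copy) in 2 libraries of epidermal keratinocytes, freshly plated from newborn C57BL/6 mice in low-calcium medium, and 2 libraries of C57BL/6 thymocytes. The thymocytes were the total cell population of crushed thymi and not a sorted stage. Chromatin was fixed, cut with HindIII and religated, and probe pairs were joined where a forward and a reverse fragment had been ligated to each other. Each contact has a corrected 5C frequency, the frequency expected at its genomic distance, and a Z score, which is the difference of the 2 divided by the weighted standard deviation of the expectation.

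The members were the HindIII fragments whose midpoint lay above 92.238 and up to 92.33 Mb of chromosome 3 (mm9). This rule took 14 of the 712 fragments of the locus, 7 with a forward and 7 with a reverse probe. They had 3016 of 95692 listed contacts in keratinocytes 1, 2704 of 67210 in keratinocytes 2, 2359 of 45861 in thymocytes 1 and 2089 of 53420 in thymocytes 2. All 4 libraries listed 806 contacts of the region, out of 23395 in the whole locus. The study calls the 2 libraries of a cell type biological replicates, while the labels do not name the animals or preparations behind each library.

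On the GENCODE annotation of mm9 all 4 genes are on the minus strand. Sprr1b (chr3:92240731-92242701) lay inside a reverse fragment of 4982 bp. Sprr3 (chr3:92260697-92261539) lay inside a forward fragment of 7534 bp, and Sprr4 (chr3:92304185-92304415) inside a reverse fragment of 6661 bp. Sprr1a (chr3:92287877-92289816) shared a forward fragment of 18868 bp with E8 (chr3:92289963-92293269), of which 3284 of 3307 bp fell in this fragment and the last 23 bp in the next. Only 146 bp separated the gene start of Sprr1a from the near edge of E8. Contacts of the Sprr1a gene and of E8 therefore cannot be told apart in these data, and both are called the Sprr1a/E8 fragment here.

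A 5C read is a forward probe joined to a reverse probe across a restored HindIII site. The 30 genomic bases of each probe, as designed by the study, give the following 60-base junctions for the pairs that the results below turn on, with the bases that rebuild the HindIII site in capitals. The forward bases are on the plus strand and end at their fragment's end, and the reverse bases are the complementary strand of the end of their own fragment.
Sprr1a/E8 (chr3:92293217-92293246) with the fragment beside S100a11 (chr3:93321739-93321768): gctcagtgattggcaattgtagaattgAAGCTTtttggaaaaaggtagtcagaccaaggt
Sprr3 (chr3:92266646-92266675) with the S100a13 fragment beside E2 (chr3:90322831-90322860): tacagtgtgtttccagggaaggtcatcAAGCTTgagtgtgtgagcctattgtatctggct
Fragment beside E7 (chr3:90432688-90432717) with Sprr4 (chr3:92305000-92305029): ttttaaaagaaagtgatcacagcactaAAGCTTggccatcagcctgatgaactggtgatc
Fragment beside Lelp1 (chr3:91960250-91960279) with Sprr4 (chr3:92305000-92305029): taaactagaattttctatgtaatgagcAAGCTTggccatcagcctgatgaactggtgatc
Fragment beside Lce3a (chr3:92721688-92721717) with Sprr1b (chr3:92244456-92244485): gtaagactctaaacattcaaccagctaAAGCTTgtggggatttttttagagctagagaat
The forward probe of the Sprr1a/E8 fragment lies within E8 itself, so it reads the enhancer's far end.

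The 250 bases before the Sprr1a gene start (chr3:92289817-92290066, minus strand, mm9) run into E8 and are shown because this promoter shares its fragment with the enhancer. The letters TGAGTCA, the consensus of AP-1, a dimer of Fos and Jun proteins, were searched on both strands and are in capitals.
Sprr1a promoter: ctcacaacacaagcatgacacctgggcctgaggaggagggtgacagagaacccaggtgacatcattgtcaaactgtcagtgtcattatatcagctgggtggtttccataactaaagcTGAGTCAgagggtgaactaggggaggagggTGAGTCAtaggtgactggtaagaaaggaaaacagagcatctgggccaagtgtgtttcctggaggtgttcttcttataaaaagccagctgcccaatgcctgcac
The matches begin 133 and 103 bases before the gene start. Of the 1057 protein-coding genes annotated on chromosome 3, 3.78% held a match in the same window and 3 genes held 2 or more. The windows before the annotated starts of Sprr1b, Sprr3 and Sprr4 held 0.
E8 held 2 matches in its 3307 bp, shown with their flanks on the plus strand.
E8 match 1 (chr3:92291562-92291622): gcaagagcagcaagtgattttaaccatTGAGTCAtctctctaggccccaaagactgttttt
E8 match 2 (chr3:92293109-92293169): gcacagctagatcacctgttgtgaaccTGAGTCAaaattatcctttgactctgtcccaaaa
Of 1602 windows of this length laid end to end over the 5C locus, 38.7% held a match and 10.7% held at least as many as E8. A match is a description of the letters and not a measured binding site.

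The gene fragments were not equally measured in the 4 libraries. Sprr1b had 229 listed contacts in keratinocytes 2, 238 in thymocytes 1 and 22 in thymocytes 2, and none in keratinocytes 1. Sprr3 had 272 in keratinocytes 1 and 35 in keratinocytes 2, and none in either thymocyte library. The Sprr1a/E8 fragment had 189, 47, 160 and 35 in keratinocytes 1 and 2 and thymocytes 1 and 2. Sprr4 had 321, 52, 24 and 55 in the same order. The fragment with the last bases of E8 had 0, 272, 243 and 52. The fragments with 0 are those whose probes the study had removed from that library in its quality filter, so a 0 means no measurement and not an absence of contacts.

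Where a fragment had few listed contacts, their mean Z score was high. The mean Z score of the Sprr4 contacts was 0.10 over the 321 of keratinocytes 1, against 2.25, 1.67 and 2.04 over the 52, 24 and 55 of the other libraries. For Sprr1a/E8 it was 0.56 and 1.03 in the well-listed libraries, keratinocytes 1 and thymocytes 1, and 1.5 and 2.13 in keratinocytes 2 and thymocytes 2. For Sprr1b it was 0.73 and 0.95 in keratinocytes 2 and thymocytes 1 and 3.26 in thymocytes 2. Over all fragments of the locus, the median of these means was 1.63 to 1.89 for fragments under 100 listed contacts and 0.19 to 0.68 for the others, across the 4 libraries. Spearman's correlation between number listed and mean Z score ran from -0.51 to -0.22 over 677 to 694 fragments, which share libraries and partners. The study corrected the coverage of each probe separately in each library. Means of a single gene fragment were therefore compared between cell types only where at least 10 of its contacts were shared by all 4 libraries. No gene fragment met this. Over the contacts that all 4 libraries listed, Sprr1a/E8 had 5, Sprr4 had 3, and Sprr1b and Sprr3 had none.

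**Figure D1:**
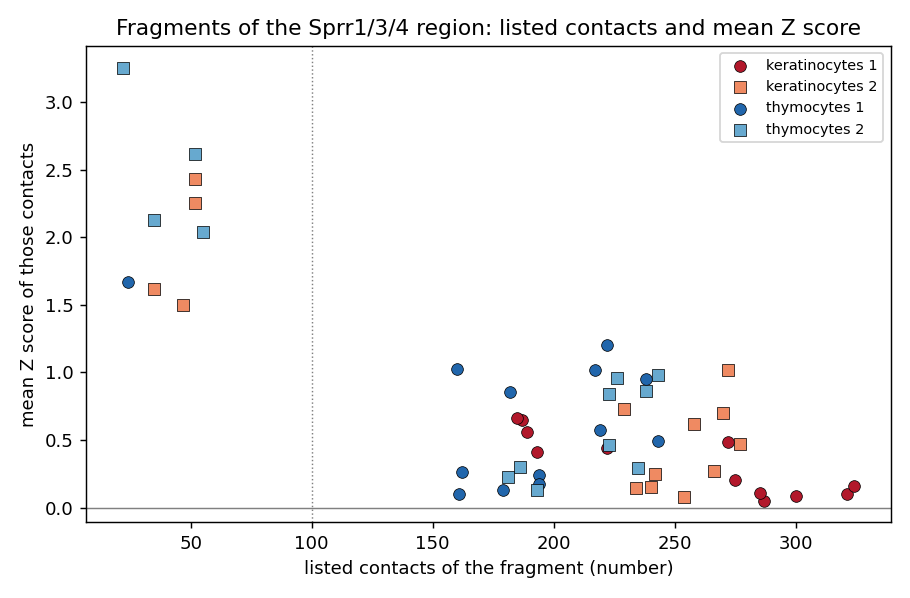
Number of listed contacts (x axis) against their mean Z score (y axis) for each of the 14 fragments of the region in each library, 1 point per fragment and library. The dotted line marks 100 listed contacts, and the points to its left, up to 3.26, all lie above those to its right, up to 1.21.

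Over the region's contacts, keratinocytes 2 resembled both thymocyte libraries more than it resembled keratinocytes 1. Over the 806 contacts of the region, Pearson's correlation of the Z scores was 0.19 between keratinocytes 1 and 2 and 0.24 between thymocytes 1 and 2. It was 0.41 between keratinocytes 2 and thymocytes 1 and 0.28 between keratinocytes 2 and thymocytes 2. Keratinocytes 1 correlated at 0.08 and 0.01 with the thymocyte libraries. Over all 23395 contacts the value for keratinocytes 2 with thymocytes 1, 0.36, was also above the 0.28 of the keratinocyte pair. The value for keratinocytes 2 with thymocytes 2, 0.23, was below it. In the study, raw counts correlated more closely between replicates than between the cell types. These correlations are across contacts that share fragments and are given as a description. All libraries were kept in the cell type of their labels, and the cause of this pattern was not tested. Where leaving out 1 library moved a difference by over 1.5 times or turned its sign, the value without it or the range over such values is given.

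Taken over all partners, the contacts of the region had lower Z scores in keratinocytes. Their mean Z score was 0.23 and 0.34 in keratinocytes 1 and 2 and 0.50 and 0.56 in thymocytes 1 and 2. The keratinocyte mean was 0.29 ± 0.08 (SD, n = 2) and the thymocyte mean 0.53 ± 0.04 (SD, n = 2), a difference of -0.24, and the groups did not overlap. The two-sided exact permutation test gave p = 0.333, the smallest value that 2 libraries against 2 allow. Without keratinocytes 1 the difference was -0.18 and without keratinocytes 2 it was -0.30. With only the 8 fragments that had at least 100 listed contacts in every library it was -0.21.

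The same sign was found for each of the 9 fragments with at least 10 contacts in all 4 libraries, none of which holds a gene of the Sprr1/3/4 set. For some of them the difference was small, from -0.093 to -0.035. The fragment on the telomeric side of Sprr4 (chr3:92313848-92316488) had 0.44 and 0.36 in keratinocytes and 0.76 and 1.17 in thymocytes over 123 contacts, a difference of -0.56, or -0.36 without thymocytes 2. The short fragment between E8 and Sprr4 (chr3:92297670-92298368) had -0.33 and 0.24 against 0.26 and 0.42 over 80 contacts, a difference of -0.38 that was -0.098 without keratinocytes 1 and -0.67 without keratinocytes 2. A fragment on the centromeric side of Sprr3 (chr3:92258102-92259141) had 0.66 and 2.44 against 4.12 and 2.38, over 12 contacts only, and its difference of -1.70 lay between -2.59 and -0.81 without 1 library. The libraries of the 2 cell types did not overlap for 3 of the 9 fragments and overlapped for 6. The adjusted exact permutation p was 0.75 or above for each of the 9. Signs and overlaps were not counted over the other fragments of the locus, so no share stands beside these counts. For each of the 9, leaving out 1 library or another moved the difference by over 1.5 times, and it turned the sign for the telomeric Sprr3 fragment (from -0.093 to 0.048 without thymocytes 2) and the outermost telomeric fragment (from -0.079 to 0.088 without keratinocytes 2). The difference was -0.070 for the Sprr2k fragment (chr3:92237477-92238924), or -0.0043 without keratinocytes 1 and -0.14 without keratinocytes 2. For chr3:92245727-92250304 beside Sprr1b it was -0.035, or -0.0041 and -0.067 in the same order. For chr3:92305030-92305298 beside Sprr4 it was -0.24, or -0.028 and -0.45. For chr3:92238925-92239503 beside Sprr2k it was -0.19, or -0.056 without thymocytes 1 and -0.32 without thymocytes 2.

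Compared with the 22589 other contacts of the locus, those of the region lay lower in every library. The other contacts were themselves lower in keratinocytes, with mean Z scores of 0.52 and 0.59 against 0.62 and 0.71 in thymocytes. Region minus other was -0.30 and -0.24 in keratinocytes and -0.12 and -0.15 in thymocytes. This gap was larger in both keratinocyte libraries (exact permutation p = 0.333). Set against the contacts of single neighbours, the gap was also larger in keratinocytes for the Sprr2 cluster (-0.33 and -0.17 against -0.07 and -0.10 in thymocytes), and it lay below that of thymocytes for the Lce1 cluster (-0.21 and -0.07 against 0.03 and 0.05). Against Ivl the order was the reverse, at -0.21 and -0.15 in keratinocytes and -0.25 and -0.41 in thymocytes, since the Ivl contacts themselves had 0.41 and 0.48 in keratinocytes and 0.75 and 0.97 in thymocytes. A lower mean in keratinocytes was therefore not particular to the region. Both keratinocyte libraries lay below both thymocyte libraries for 187 of the 806 contacts, or 23.2%, against 19.1% of all contacts, and above them for 118, or 14.6%, against 21.1%.

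No single contact passed the test across the locus. With limma on the Z scores of 23395 contacts, 0% had a Benjamini-Hochberg adjusted p under 0.05, in the region and elsewhere, and the lowest adjusted p in the region was 0.767. At an unadjusted p under 0.05 there were 28 contacts of the region, or 3.47%, against 5.11% of all, of which 21 were lower in keratinocytes (2.61%, against 2.14% of all) and 7 higher (0.868%, against 2.97% of all). In simulated data of this design, normal noise was drawn with the spreads of the contacts shuffled among them. There the test recovered 0 of 200 contacts shifted by 4 or 8 in Z score and 141 of 200 shifted by 16. The shuffling breaks any link between a contact's mean and its spread, so these counts need not hold for the real data. The absence of calls is not evidence of equal contact in the 2 cell types.

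The direction of the difference varied along the locus. From 2 to 0.5 Mb on the centromeric side of the region, both keratinocyte libraries lay below both thymocyte libraries. Between 1.5 and 1 Mb on that side, the mean Z score of 23 contacts was -0.49 and -0.08 in keratinocytes against 1.01 and 0.72 in thymocytes. Within 0.25 Mb on the same side the order was turned, at 0.78 and 0.51 in keratinocytes against 0.25 and 0.23 in thymocytes over 43 contacts. These are the contacts with the Sprr2 cluster described below and not a separate observation. As log2 of observed over expected their difference was 0.03, and the cell types overlapped. On the telomeric side, keratinocytes lay lower in each bin up to 1 Mb, with the widest gap from 0.25 to 0.5 Mb, at -0.17 and 0.21 against 0.50 and 1.11 over 34 contacts.

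**Figure D2:**
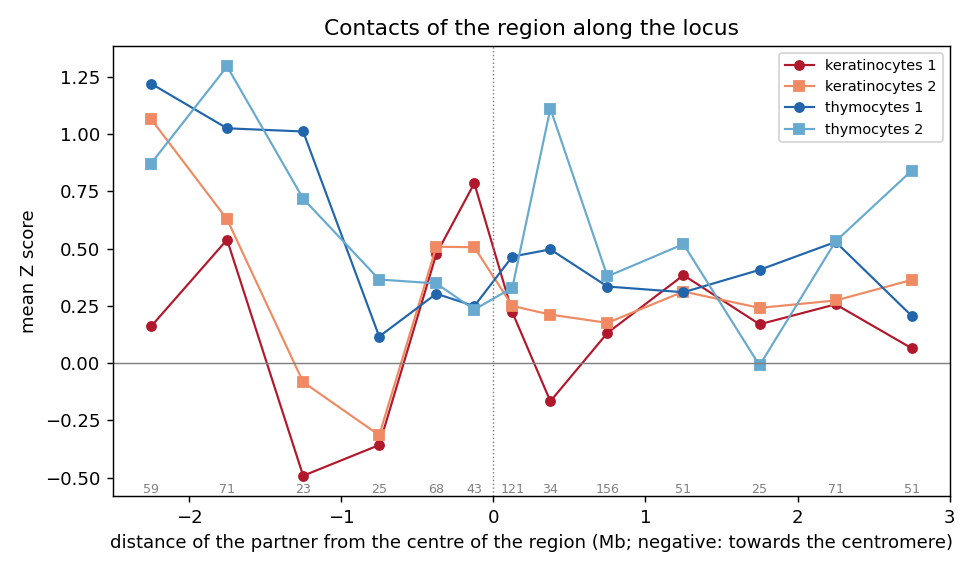
Mean Z score of the region's contacts (y axis) against the distance of the partner from the centre of the region in Mb (x axis), 1 line per library, with the number of contacts of each bin in grey. The keratinocyte lines lie above the thymocyte lines in the bins within 0.5 Mb on the centromeric side and below them in the bins from 0.5 to 2 Mb on that side.

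Partners were then grouped by gene cluster, enhancer and topologically associating domain (TAD). TAD borders are the study's average keratinocyte borders, which were drawn from these libraries, and the region lies in TAD3. Of 19 groups with at least 10 contacts in all 4 libraries, keratinocytes lay wholly below thymocytes for 11, wholly above for 1, and overlapped with them for 7. The exact permutation p was 0.333 for each of the 12 without overlap, which Benjamini-Hochberg adjustment over the 19 groups raised to 0.528. The groups share contacts, since a TAD holds its genes and enhancers. The same groups were not counted for other parts of the locus, so no share stands beside these counts.

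The Sprr2 cluster, the neighbouring group of small proline-rich genes, was the group with higher Z scores in both keratinocyte libraries. Its 43 contacts with the region had a mean Z score of 0.78 and 0.51 in keratinocytes and 0.25 and 0.23 in thymocytes, a difference of 0.40, or 0.26 without keratinocytes 1. As the median over contacts the difference was 0.07, and on the scale of log2 observed over expected it was 0.03 and the groups overlapped, at 0.08, 0.02, 0.04 and -0.01 in keratinocytes 1 and 2 and thymocytes 1 and 2. The rest of TAD3 behaved likewise. Contacts of its other fragments with the Sprr2 cluster had 1.16 and 0.61 in keratinocytes and 0.41 and 0.59 in thymocytes.

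Prr9 and Lelp1, further proline-rich genes near the centromeric end of TAD3, showed the same order in 9 contacts, too few for the test. The mean Z scores were 1.04 and 1.33 in keratinocytes and 0.51 and 0.34 in thymocytes. With Ivl on the other side of the region the groups overlapped, at 1.44 and 0.66 against 0.75 and 0.56 over 16 contacts, and the difference of 0.40 was 0.0086 without keratinocytes 1 and 0.79 without keratinocytes 2. Over all 229 contacts with TAD3 the 4 libraries were nearly level, between 0.40 and 0.42.

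Contacts with TAD2, the gene-poor domain on the centromeric side, were lower in keratinocytes. The 76 contacts had -0.27 and -0.11 in keratinocytes and 0.38 and 0.33 in thymocytes, a difference of -0.54, or -0.46 without keratinocytes 1 and -0.63 without keratinocytes 2. The other fragments of TAD3 had 0.68 and 0.54 in keratinocytes and 0.50 and 0.70 in thymocytes for their 1086 contacts with TAD2. Region minus other TAD3 fragments was thus -0.95 and -0.64 in keratinocytes against -0.12 and -0.37 in thymocytes, without overlap (exact permutation p = 0.333). The same comparison with other TAD3 fragments also gave no overlap for TAD4 and the Lce1 cluster, and overlap for TAD1, TAD6, Prr9 and Lelp1, the Sprr2 cluster, and S100a11 and S100a10.

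The late cornified envelope genes of the Lce1 cluster, which are expressed in the outermost living epidermis, gave the same picture within TAD3. Their 84 contacts with the region had -0.08 and 0.14 in keratinocytes and 0.30 and 0.34 in thymocytes, a difference of -0.29, or -0.18 without keratinocytes 1. Other TAD3 fragments met the Lce1 cluster at 0.92 and 0.54 in keratinocytes and 0.48 and 0.55 in thymocytes, so the gap to them was -1.0 and -0.39 in keratinocytes and -0.18 and -0.21 in thymocytes.

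Further along, the groups of the fused S100 proteins, which include the keratin-bundling filaggrin, were also lower. Crnn, Flg2, Flg and Hrnr had -0.15 and 0.16 against 0.29 and 0.39 over 49 contacts, and the difference of -0.34 was -0.18 without keratinocytes 1. Rptn, Tchh and Tchhl1 had -0.17 and -0.01 against 0.32 and 0.43 over 33 contacts. Lce3 and Crct1 had 0.28 and 0.20 against 0.32 and 0.64 over 47 contacts, with a difference of -0.24 that was -0.40 without thymocytes 1 and -0.084 without thymocytes 2. The inflammatory genes S100a7a, S100a8 and S100a9, on the far centromeric side, had 0.35 and -0.07 against 0.85 and 1.13 over 14 contacts.

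Among the enhancers with enough contacts, E9 and the cluster E4-E7 were lower in keratinocytes and E13 and E14 overlapped. The 22 contacts with E9 had 0.24 and 0.03 in keratinocytes and 0.55 and 0.66 in thymocytes. The 12 contacts with E4-E7 had 0.49 and 0.57 against 1.03 and 1.14, but with the median over contacts the difference turned from -0.55 to 0.41. For S100a11 and S100a10 the libraries overlapped widely, at 1.10 and 0.43 in keratinocytes and -0.10 and 0.82 in thymocytes over 18 contacts, and leaving out 1 library took the difference of 0.40 anywhere from -0.057, without thymocytes 1, to 0.86, without thymocytes 2. The differences for E13 and E14, -0.77 and -0.33, ran from -1.63 to 0.082 and from -0.61 to -0.053 in the same way.

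The remaining groups also overlapped or were lower in keratinocytes. S100a1 to S100a16 with E2/E3 had 1.34 and 1.28 against 0.92 and 3.14 over 10 contacts, and its difference of -0.72 was -1.83 without thymocytes 1 and 0.40 without thymocytes 2. TAD1 had 0.37 and 0.86 against 1.15 and 1.14, where the median over contacts gave the other direction, with a difference of 0.17. The difference of means for TAD1, -0.53, was -0.29 without keratinocytes 1. TAD4 had 0.15 and 0.20 against 0.34 and 0.49, TAD6 had 0.20 and 0.30 against 0.53 and 0.34. The difference for TAD6, -0.18, was -0.091 without thymocytes 1 and -0.28 without thymocytes 2. TAD7 overlapped, and its difference of -0.38 was -0.95 without thymocytes 1 and 0.18 without thymocytes 2.

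**Figure D3:**
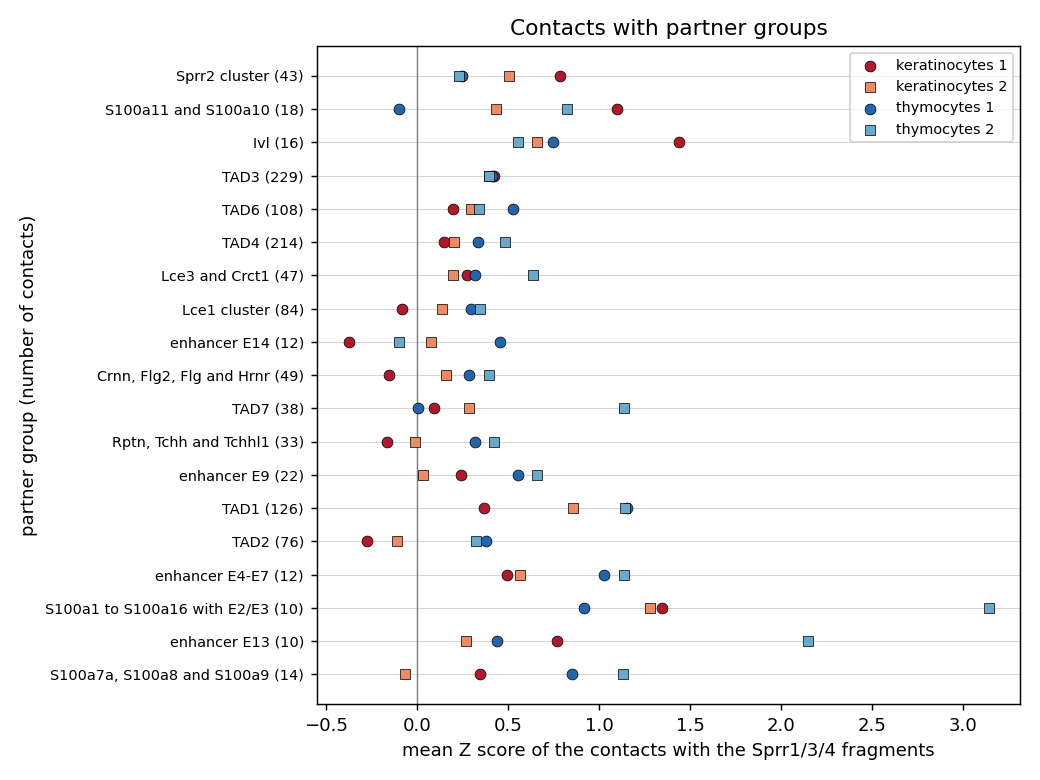
Mean Z score of the region's contacts with each partner group (x axis) in the 4 libraries, with the number of contacts in all 4 libraries in brackets, ordered by the difference between cell types. The red and orange keratinocyte points lie to the right of both blue thymocyte points for the Sprr2 cluster alone, at 0.78 and 0.51.

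In single libraries, 230 and 306 contacts of the region had a q-value under 0.05 in keratinocytes 1 and 2 (7.63% and 11.3%, against 5.99% and 11.4% of all listed contacts), and 242 and 265 in thymocytes 1 and 2 (10.3% and 12.7%, against 11.7% and 14.5%). A contact was called for a cell type where both of its libraries passed that limit, which is the study's rule. In keratinocytes 23 of 1666 contacts of the region passed, or 1.38%, below the 1.99% of all contacts listed in both libraries. In thymocytes 39 of 1392 passed, or 2.8%, below the 4.03% of all. The median distance of the calls was 1753 kb in keratinocytes and 1850 kb in thymocytes, and 14 of the 23 and 27 of the 39 were at 1 Mb or more. Many of the contacts that could be called are that long. Of the region's 806 contacts shared by all 4 libraries, 168 were at 1 to 2 Mb and 186 at 2 to 3 Mb. The distances of all calls of the locus were not counted, so long distance is not given as a trait of the region. Calls were also more frequent where a fragment was thinly listed. At least 1 of the fragments had under 100 listed contacts for 9 of the 23 keratinocyte calls and 22 of the 39 thymocyte calls, against 14.2% and 12.9% of the region's contacts listed in both libraries. These are 39.1% and 56.4% of the region's calls. Over all calls of the locus the shares were 42.6% and 44.1%, so this is not particular to the region. With only well-listed fragments the called shares were 0.98% in keratinocytes and 1.40% in thymocytes, with 1.28% and 2.68% for the whole locus.

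Few of these calls could be compared between the cell types. Of the 23 keratinocyte calls, 11 were listed in all 4 libraries and 2 were also called in thymocytes. Thymocytes 1 listed 17 of them and called 9, and thymocytes 2 listed 13 and called 4. Of the 39 thymocyte calls, keratinocytes 1 listed 21 and called 6, and keratinocytes 2 listed 26 and called 14. Over the contacts listed in all 4 libraries, 9 of 806, or 1.12%, were called in keratinocytes and not in thymocytes, against 1.45% of the locus. The reverse held for 13, or 1.61%, against 3.19%, and 2, or 0.248%, were called in all 4 libraries against 0.581%.

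The 2 contacts called in all 4 libraries joined the Sprr4 side of the region to its neighbours in TAD3. The reverse fragment on the telomeric side of Sprr4 (chr3:92313848-92316488) met a fragment beside Sprr2h at 124 kb with Z scores of 4.32 and 9.89 in keratinocytes and 5.03 and 3.59 in thymocytes. Its corrected frequency was 1835 and 1739 in keratinocytes and 767 and 602 in thymocytes, against expected values of 603, 345, 273 and 263. The forward fragment next to it (chr3:92316489-92319594) met a fragment near Ivl at 58 kb with 3.48 and 3.85 in keratinocytes and 3.23 and 3.87 in thymocytes, and was chosen for mention after its values were seen.

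The Sprr1a/E8 fragment had 1 call in keratinocytes, with the fragment (chr3:93317982-93321768) that lies 2.64 kb from S100a11, a calcium-binding protein gene 1025 kb away in TAD4. The Z score was 7.22 and 4.90. Its corrected frequency was 628 against an expected 124 in keratinocytes 1 and 261 against 78.4 in keratinocytes 2. Neither thymocyte library listed this pair, so whether it differs between the cell types was not measured. The junction printed first above is this pair. Keratinocytes 2 listed 47 contacts of the Sprr1a/E8 fragment in all and called 14 of them, and thymocytes 2 listed 35 and called 12. In thymocytes the same fragment was called with a fragment 0.73 kb from E9, at 633 kb, with 6.33 and 7.19. Keratinocytes 1 had 3.00 for it, with a q-value of 0.0225, and keratinocytes 2 did not list it. The other contact of Sprr1a/E8 called in both thymocyte libraries was with a gene-free fragment of TAD3 at 112 kb. It had 14.4 and 3.29 in thymocytes and 5.36 and 1.33 in keratinocytes.

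Sprr3 was measured in keratinocytes alone and had 2 calls there. Keratinocytes 2 listed 35 contacts of Sprr3 in all and called 11 of them. With the S100a13 fragment that lies 6.5 kb from E2, at 1936 kb, its Z scores were 4.15 and 4.10, and the corrected frequencies were 206 against 60.1 expected and 105 against 35.4. The other 2 fragments beside E2 and E3 that keratinocytes 1 listed with Sprr3 had -1.61 and -0.16. The other call, at 1145 kb with a TAD4 fragment between S100a11 and the end of that domain, had 3.21 and 6.14.

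Sprr4 had 2 calls in keratinocytes and none in thymocytes. The thymocyte libraries listed only 24 and 55 of its contacts, so few could be called in both of them. Keratinocytes 2 listed 52 contacts of Sprr4 in all and called 19 of them. The pair with a fragment 9.88 kb from E7, beside the S100a6 end of that gene group at 1866 kb, had 9.56 and 11.8. Its corrected frequency was 429 against 62.2 expected in keratinocytes 1 and 227 against 36.8 in keratinocytes 2. In thymocytes 2 it was 16.6 against 28.5, a Z score of -0.91, and thymocytes 1 did not list it. Another fragment at E4-E7 had a Z score of 11.1 with Sprr4 in thymocytes 2, which listed 2 such pairs. In keratinocytes 1 the 6 listed pairs of Sprr4 with E4-E7 had a median of -0.04 and 1 call.

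The other Sprr4 call was with a fragment beside Lelp1 at 338 kb, with 8.64 and 3.04 in keratinocytes and -0.36 in thymocytes 2, and it was not listed in thymocytes 1. The same Lelp1 fragment was called in keratinocytes with the fragment at the centromeric edge of the region, which holds the end of Sprr2k, with 2.82 and 3.05 against 0.99 and 0.04. This edge fragment was also called with the fragment that holds Lelp1, at 298 kb, with 4.45 and 6.97 in keratinocytes and 0.68 and -0.86 in thymocytes. Its corrected frequency was 1186 and 754 in keratinocytes and 193 and 84.8 in thymocytes, against expected values of 393, 195, 153 and 121. All 4 libraries listed this last pair, and the cell types did not overlap. The pair is shown because it was called in keratinocytes, so its order is no test of a difference. Both keratinocyte libraries lay above both thymocyte libraries for 14.6% of the region's 806 shared contacts and 21.1% of all.

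Sprr1b, which keratinocytes 1 did not measure, had 3 calls in thymocytes. With a fragment 7.5 kb from Lce3a, at the border of TAD3 and TAD4, the Z scores were 9.78 and 8.84 in thymocytes and 0.89 in keratinocytes 2. With the Pi4kb fragment that overlaps E14, at 2535 kb, they were 5.65 and 7.44 against 1.19. The pair with Slc39a1, a zinc transporter gene at the far end of TAD1, had 6.38 and 10.9 and was listed in neither keratinocyte library. Thymocytes 2 listed 22 contacts of Sprr1b in all and called 11 of them.

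The fragment that holds the last 23 bp of E8 had 4 calls, all in thymocytes, and keratinocytes 1 did not measure it. Its pairs with Npr1, Tuft1 at E12 and Sema6c had 4.56 and 9.57, 8.42 and 3.65, and 6.75 and 8.21 in thymocytes. Keratinocytes 2 also had high values for these 3, at 12.1, 14.9 and 7.49. The pair with a fragment 8.44 kb from S100a7a had 2.54 and 14.7 in thymocytes and -1.63 in keratinocytes 2. Thymocytes 2 listed 52 contacts of the fragment with the end of E8 in all and called 18 of them.

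**Figure D4:**
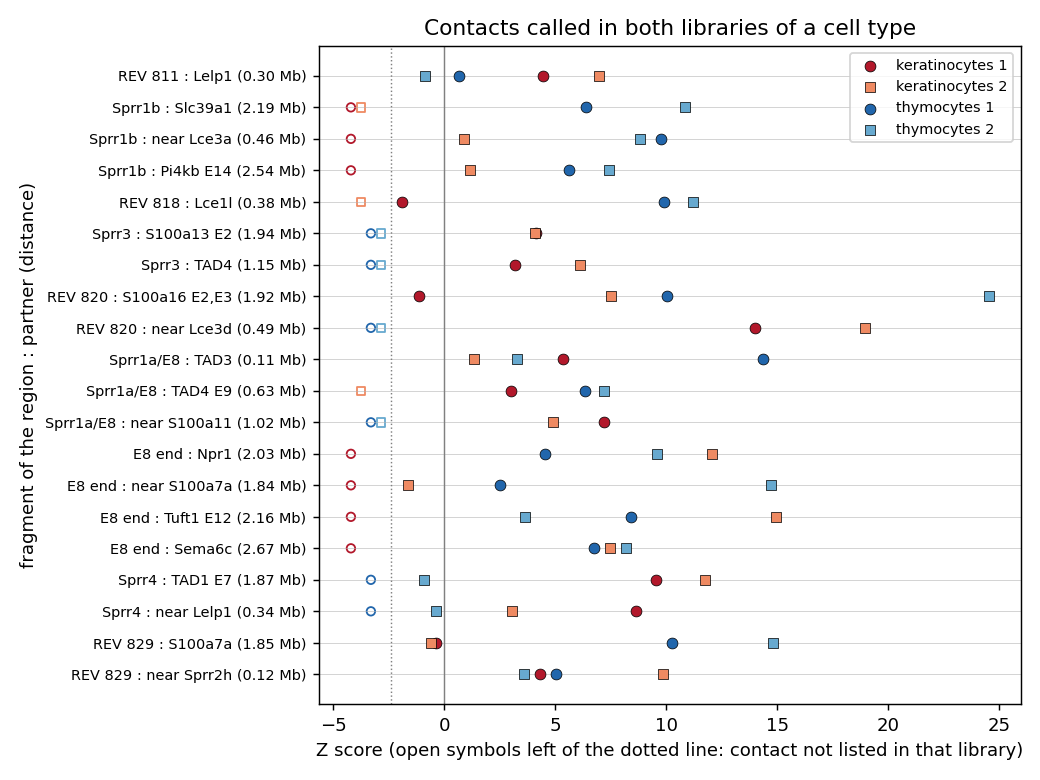
Z score (x axis) in each library of the called contacts of the gene and E8 fragments, and of the 3 strongest called contacts per cell type of the other fragments (y axis, with the distance). Open symbols left of the dotted line mark libraries that did not list the contact; keratinocytes 1 did not list any contact of Sprr1b or of the fragment with the end of E8, and no thymocyte library listed one of Sprr3.

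The other fragments had strong calls beside Sprr3 and beyond Sprr4. A reverse fragment on the telomeric side of Sprr3 (chr3:92266676-92272990) met a fragment 1.11 kb from Lce3d with 14 and 19 in keratinocytes, the keratinocyte call of the region with the highest Z score in its weaker library. Its corrected frequency was 2068 and 1259 against expected values of 262 and 143, and neither thymocyte library listed it. A reverse fragment on the centromeric side of Sprr3 (chr3:92258102-92259141) met the same Lce3d fragment with 4.19 and 10.6 in thymocytes and 0.01 and -0.74 in keratinocytes, a contrast noticed after the values were seen. That centromeric fragment had 11 of the 39 thymocyte calls, and its call with Lce1l had 9.91 and 11.2 in thymocytes, -1.92 in keratinocytes 1 and no value in keratinocytes 2, which listed 52 of its contacts.

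In thymocytes, the telomeric fragment was called with S100a16, which overlaps E3, with 10.1 and 24.5. Here keratinocytes 2 had 7.52 and keratinocytes 1 had -1.14. The fragment beyond Sprr4 (chr3:92313848-92316488) was called with S100a7a, a gene of inflamed skin, with 10.3 and 14.8 in thymocytes and -0.38 and -0.60 in keratinocytes. Its corrected frequency was 184 and 146 in thymocytes, against 35.9 and 22.2 expected, and 45.2 and 23.8 in keratinocytes, against 57.8 and 34.1 expected. This pair was listed in all 4 libraries and was well above expectation in thymocytes alone. It is shown because it was called in thymocytes, so this order is no test of a difference. The same S100a7a fragment had a keratinocyte call with the fragment on the centromeric side of Sprr3, with 2.75 and 10.1, against 1.41 in thymocytes 1 and no value in thymocytes 2.

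Contacts among the 14 fragments themselves were close to expectation. Of 49 possible pairs, 43 were listed in at least 1 library and 8 in all 4. The median Z score of those listed was 0.03 and 0.27 in keratinocytes and 0.06 and 0.16 in thymocytes, and none was called in both libraries of a cell type. Over the 8 shared pairs the means were 0.34 and -0.11 in keratinocytes and 0.25 and 0.26 in thymocytes, which overlap (exact permutation p = 1). No pair of 2 gene fragments was listed in all 4 libraries. Sprr3 with Sprr4 was listed in keratinocytes 1 alone, with -2.18, and Sprr1a/E8 with Sprr1b in thymocytes 1 alone, with 0.30. In single libraries, 3 pairs were called in keratinocytes 1 and 1 in thymocytes 1. The keratinocyte pairs were the fragment beside Sprr1b with the one on the centromeric side of Sprr3 at 8 kb (4.51), the outermost fragments of the region with each other at 78 kb (3.91), and the Sprr2k fragment with the next at its border (2.75). The first had 0.72 and -0.02 in thymocytes and no value in keratinocytes 2, and the others had 0.51 and 0.65 in keratinocytes 2. The pair of Sprr1a/E8 with the fragment beyond Sprr4 at 21 kb had 2.82 in thymocytes 1, with a q-value of 0.0176, 0.58 in thymocytes 2 and 0.26 in keratinocytes 1.

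The frequencies themselves fell with distance in every library up to 2 Mb. The median corrected frequency of the region's contacts from 50 to 200 kb was 694 and 398 in keratinocytes and 299 and 314 in thymocytes, and beyond that, from 1 to 2 Mb, it was 73.2 and 44.2 against 41.5 and 32.6. From 2 to 3 Mb it fell further to 50.8, 33.2 and 19.9 in keratinocytes 1 and 2 and thymocytes 2, and was 48.4 in thymocytes 1, where the expected value also rose from 42.6 to 46.6. Under 10 kb, over 5 contacts, it was 2730 and 2629 in keratinocytes and 8533 and 10373 in thymocytes. The expected values followed, at 4174 and 2691 against 8167 and 12555 under 10 kb. The libraries were not scaled to a common total, so these levels are not compared between libraries. On the Z score scale the same 5 contacts had 2.15 and 0.40 in keratinocytes and 0.53 and 0.32 in thymocytes, which overlap.

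**Figure D5:**
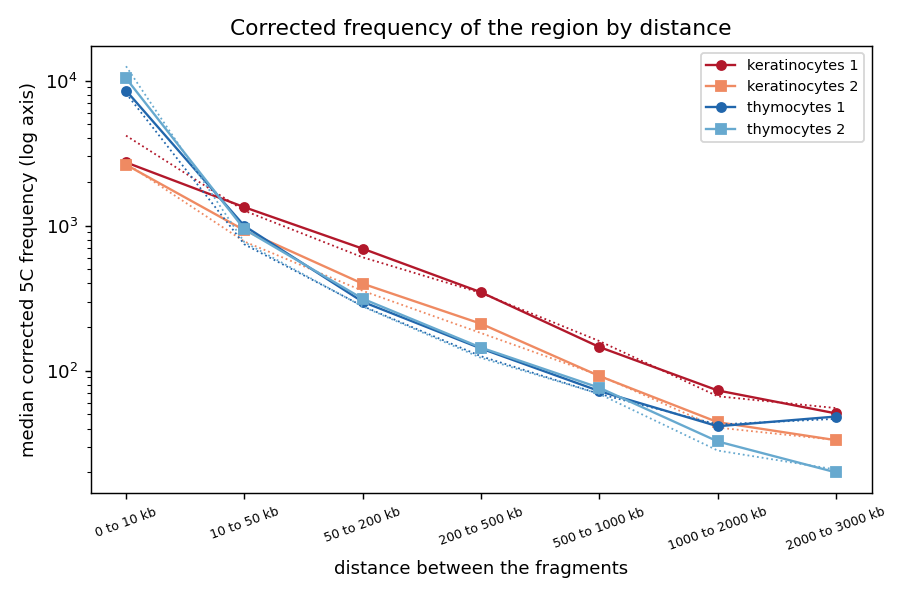
Median corrected 5C frequency of the region's shared contacts (y axis, log scale, authors' corrected units) by distance class (x axis), with solid lines for the observed and dotted lines for the expected frequency of each library. Within each library the observed line follows the expected line, and the thymocytes 1 line turns up from 41.5 to 48.4 in the last class.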

How the data were processed

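The signal that the authors deposited is a corrected 5C frequency per contact, with the expected frequency and its weighted standard deviation, in a list for each library. Per the labels and the study's methods, reads were aligned with Bowtie (version not given in the sources used here) to the probes of the mm9 locus, poor probes and single contacts of extreme frequency were left out, and probe coverage was corrected in each library. The Z score is a score deposited by the authors, as are its p-value and q-value. Recomputing the Z score from its 3 parts gave the deposited value. Raw counts were not used here. The read depth is therefore unknown and counting intervals cannot be given. The number of listed contacts (45861 to 95692) limits the comparisons to 23395 contacts.

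Fragments were assigned by midpoint. Genes and enhancers were taken from the study's lists with a distance of 10 kb, gene coordinates from GENCODE vM1, and bases from NCBIM37, where 737 of 761 listed probes equalled the genome over their 30 bases. Library means over contacts of all 4 libraries were compared by two-sided exact permutation tests (scipy 1.17.1), and single contacts with limma 3.58.1 (lmFit, eBayes with trend) in R 4.3.3 with Benjamini-Hochberg adjustment. Simulated data with 200 shifted contacts were used to test limma. Named contacts are those of the gene and E8 fragments called in both libraries of a cell type, and the 3 with the highest lower Z score of each cell type for the other fragments. The members, groups and tests were chosen with earlier results of these data known. Alternatives were the median, log2 of observed over expected, all listed contacts, a replicate block, other q thresholds, a distance of at least 50 kb, other limma settings, and leaving out each library. The restriction to fragments with at least 100 listed contacts was chosen after seeing the data.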

Additional observations from a re-analysis of the deposited data

How the results depend on the processing

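The difference over all contacts of the region kept its sign under every alternative run, from -0.30 to -0.15. Some differences turned sign. With the median over contacts these were a fragment beside Sprr3 (0.043), S100a1 to S100a16 (0.88), E4-E7 (0.41), TAD1 (0.17) and TAD3 (-0.12). With log2 of observed over expected they were S100a1 to S100a16 (0.14), S100a11 and S100a10 (-0.048) and TAD3 (-0.17). With all contacts each library lists they were both fragments beside Sprr3 (0.60 and 0.024) and Lce3 and Crct1 (0.20). Contacts within the region turned to 0.56 with log2 corrected frequency scaled to the same total. Leaving out 1 library gave ranges of -0.36 to 0.085 within the region, -0.23 to 0.048 and -0.24 to 0.088 for the telomeric Sprr3 fragment and the outermost fragment, -1.83 to 0.40 for S100a1 to S100a16, -0.057 to 0.86 for S100a11 and S100a10, -1.63 to 0.082 for E13, -0.0073 to 0.019 for TAD3 and -0.95 to 0.18 for TAD7.

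The keratinocyte calls fell from 23 to 13 at a q-value under 0.01 and to 11 over contacts listed in all 4 libraries, and the thymocyte calls from 39 to 15 over the latter. A single library called 230 to 306 contacts of the region in keratinocytes and 242 to 265 in thymocytes. limma gave 0 calls in the region under each setting that kept all 4 libraries.

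The labels do not say whether the replicate numbers pair the libraries. The difference of replicates in keratinocytes correlated at -0.09 with that in thymocytes over 23395 contacts, which cannot settle this. With the replicate block the difference over all contacts was -0.24 (exact permutation p = 0.5) and limma made 0 calls. The unknown depth and the thin lists of Sprr1a/E8, Sprr1b, Sprr3 and Sprr4 limit what could be compared.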
